A study of Mus musculus with 29 samples.

Results

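The genes described here are 43 genes of cell proliferation, which encode the machinery of DNA replication and of mitosis. The members were fixed by name, and each one was found in the first column of a count table of 24770 rows, so that all 43 of 43 were present. They comprise 13 replication members (the 6 subunits of the origin licensing helicase Mcm2 to Mcm7, 5 genes of the replication fork and of nucleotide supply, and the cyclin E genes Ccne1 and Ccne2) and 30 mitotic members. RNA was sequenced from brown adipose tissue (BAT) and from gastrocnemius skeletal muscle (SkM) of wild-type mice, which the study's methods give as male C57BL/6J. The 4 groups of each tissue were sedentary controls fed freely, sedentary mice under calorie restriction (CR), freely fed mice trained by treadmill running (EX), and trained mice under calorie restriction (CREX). Both interventions were begun together in young adult mice and ran for several weeks, and tissue was taken a day after the last run. BAT was represented by 3 control, 4 CR, 4 EX and 4 CREX libraries, and SkM by 4 control, 3 CR, 4 EX and 3 CREX libraries. The libraries held between 21047253 and 24919384 counts in BAT and between 23050928 and 23425293 in SkM. Whether a library came from 1 mouse or from pooled mice, and whether both tissues of a mouse were used, is not given in the sources used here, so p-values measure the spread between these libraries. Markers of the labelled tissues were high: 5 brown adipocyte markers summed to between 10210 and 15050 CPM (counts scaled to the library total, with TMM factors) in BAT and between 78.3 and 213 in SkM, and 10 muscle fibre markers to between 121800 and 200200 CPM in SkM. The muscle markers also ranged from 3.33 to 6907 CPM among the BAT libraries, so muscle RNA was present in BAT in unequal amounts.

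A dividing cell copies its DNA once and then separates the copies. The MCM helicase is loaded at replication origins and activated with the help of cyclin E and its kinase, PCNA clamps the polymerases to DNA, and ribonucleotide reductase (Rrm1, Rrm2), thymidylate synthase (Tyms) and thymidine kinase (Tk1) supply nucleotides. Entry into mitosis is driven by Cdk1 with cyclins A and B and by the Aurora and Polo kinases, and kinesins, kinetochore proteins and the spindle checkpoint then move and guard the chromosomes before Racgap1, Ect2 and Anln build the contractile ring of cytokinesis. Mature brown adipocytes and muscle fibres have left the cell cycle, and dividing cells in such tissues are mostly progenitor, endothelial and immune cells. In quiescent cells the genes of both phases are held down by repressor complexes bound to short promoter elements, E2F sites mainly at replication genes and CHR elements, often beside CCAAT boxes, mainly at mitotic genes.

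Promoters of the members that the results below turn on are shown to let these elements be seen. RefSeq promoter windows of 300 bases (GRCm38.p6) were matched for 37 of the 43 members, and Ccna2, Aurkb, Kif20a, Tpx2, Mcm4 and Ccne2 had no entry. On either strand, the CHR letters TTTGAA or TTCGAA were found in 22 of the 26 mitotic members with a window (84.6%) and in 2 of the 11 replication members (18.2%), against 21.7% of the 27025 genes with a window. CCAAT was found in 84.6% of the mitotic members, in 72.7% of the replication members and in 41.1% of all genes. The E2F letters TTTGGCGC, TTTCCCGC, TTTGGCGG or TTCCCGCC, some of which overlap one another, were found in 5 of the 11 replication members (45.5%), in 0 of the 26 mitotic members and in 4.22% of all genes. The stretches below run from 170 bases before to 30 bases from the RefSeq start, 5′ to 3′ on the strand of the gene, and capitals mark every CHR, CCAAT or E2F match on either strand. Mki67 (chr7:135716350-135716549, minus strand), Cenpa (chr5:30666716-30666915, plus strand) and Racgap1 (chr15:99651627-99651826, minus strand) stand for the mitotic members, and Mcm3 (chr1:20820283-20820482, minus strand) and Mcm5 (chr8:75109339-75109538, plus strand) for the replication members.
Mki67: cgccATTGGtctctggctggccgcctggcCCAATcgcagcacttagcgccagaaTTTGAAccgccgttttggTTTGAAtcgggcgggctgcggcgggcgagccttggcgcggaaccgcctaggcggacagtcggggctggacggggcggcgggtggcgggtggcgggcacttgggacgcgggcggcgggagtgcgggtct
Cenpa: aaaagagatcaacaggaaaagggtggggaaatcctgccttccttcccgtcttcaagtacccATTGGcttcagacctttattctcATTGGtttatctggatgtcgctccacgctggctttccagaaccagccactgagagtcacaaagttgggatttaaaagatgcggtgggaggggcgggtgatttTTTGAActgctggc
Racgap1: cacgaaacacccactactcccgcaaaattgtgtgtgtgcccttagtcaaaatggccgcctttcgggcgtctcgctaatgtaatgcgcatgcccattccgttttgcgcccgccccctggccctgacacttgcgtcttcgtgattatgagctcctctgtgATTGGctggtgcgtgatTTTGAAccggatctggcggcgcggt
Mcm3: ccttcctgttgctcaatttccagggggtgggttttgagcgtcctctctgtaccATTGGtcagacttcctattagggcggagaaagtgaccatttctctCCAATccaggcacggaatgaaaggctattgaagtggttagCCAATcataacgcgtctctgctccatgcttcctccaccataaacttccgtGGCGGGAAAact
Mcm5: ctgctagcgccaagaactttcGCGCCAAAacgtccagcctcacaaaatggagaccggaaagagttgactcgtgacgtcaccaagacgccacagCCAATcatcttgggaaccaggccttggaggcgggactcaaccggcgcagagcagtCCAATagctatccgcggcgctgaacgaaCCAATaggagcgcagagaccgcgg
These stretches held 2, 1 and 1 CHR matches for Mki67, Cenpa and Racgap1, and 2 and 1 E2F matches for Mcm3 and Mcm5. A match of letters is a description of the sequence and no evidence that a factor was bound there.

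The replication members summed to far more than the mitotic members in both tissues, and much of the mitotic list lay near the detection limit. Single replication members were also low, such as Rrm2 and Tk1 in BAT and Tyms and Ccne1 in SkM, below several mitotic members. Of the 43 members, 24 had a median of 10 counts or fewer over the BAT libraries and 24 over the SkM libraries, and 21 did so in both. A median of 3 counts or fewer was seen for 9 members in BAT and for 12 in SkM, and at least 1 library was at 0 for 10 members in BAT and 14 in SkM. At these depths 3 counts correspond to between 0.120 and 0.143 CPM in BAT and between 0.128 and 0.130 in SkM, so a difference below that size was not detectable for a member at 0. In BAT, 28 members passed the filter on low counts when all groups were fitted together, and in SkM 24 did. The 15 members left out in BAT were Top2a, Ccnb2, Cdk1, Bub1, Birc5, Aurkb, Plk1, Cdc20, Kif2c, Tpx2, Cenpe, Cenpf, Tk1, Hmmr and Ect2. The 19 left out in SkM were Mki67, Top2a, Ccnb1, Ccnb2, Cdk1, Bub1, Birc5, Aurkb, Plk1, Cdc20, Cdca8, Kif23, Kif2c, Cenpe, Cenpf, Ube2c, Hmmr, Ccne1 and Ect2. Counts of members such as these are given as counts, with no test.

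Per kb of merged exon, which allows levels to be compared between genes, Pcna, the polymerase clamp, was the most abundant member in control mice of both tissues, at 9.15 CPM per kb in BAT and 6.0 in SkM. In BAT it was followed by Mcm7 at 2.15, Rrm1 at 1.38, Mcm4 at 1.04 and Cenpa at 0.969 CPM per kb. In SkM the next members were Aurka at 2.43, Rrm1 at 2.12, Mcm7 at 1.68 and Ccne2 at 1.06 CPM per kb. Thus a kinetochore gene in BAT and a mitotic kinase in SkM ranked among the DNA replication genes, while Hmmr, Cenpf and Bub1 stood at the bottom in both tissues.

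**Figure D1:**
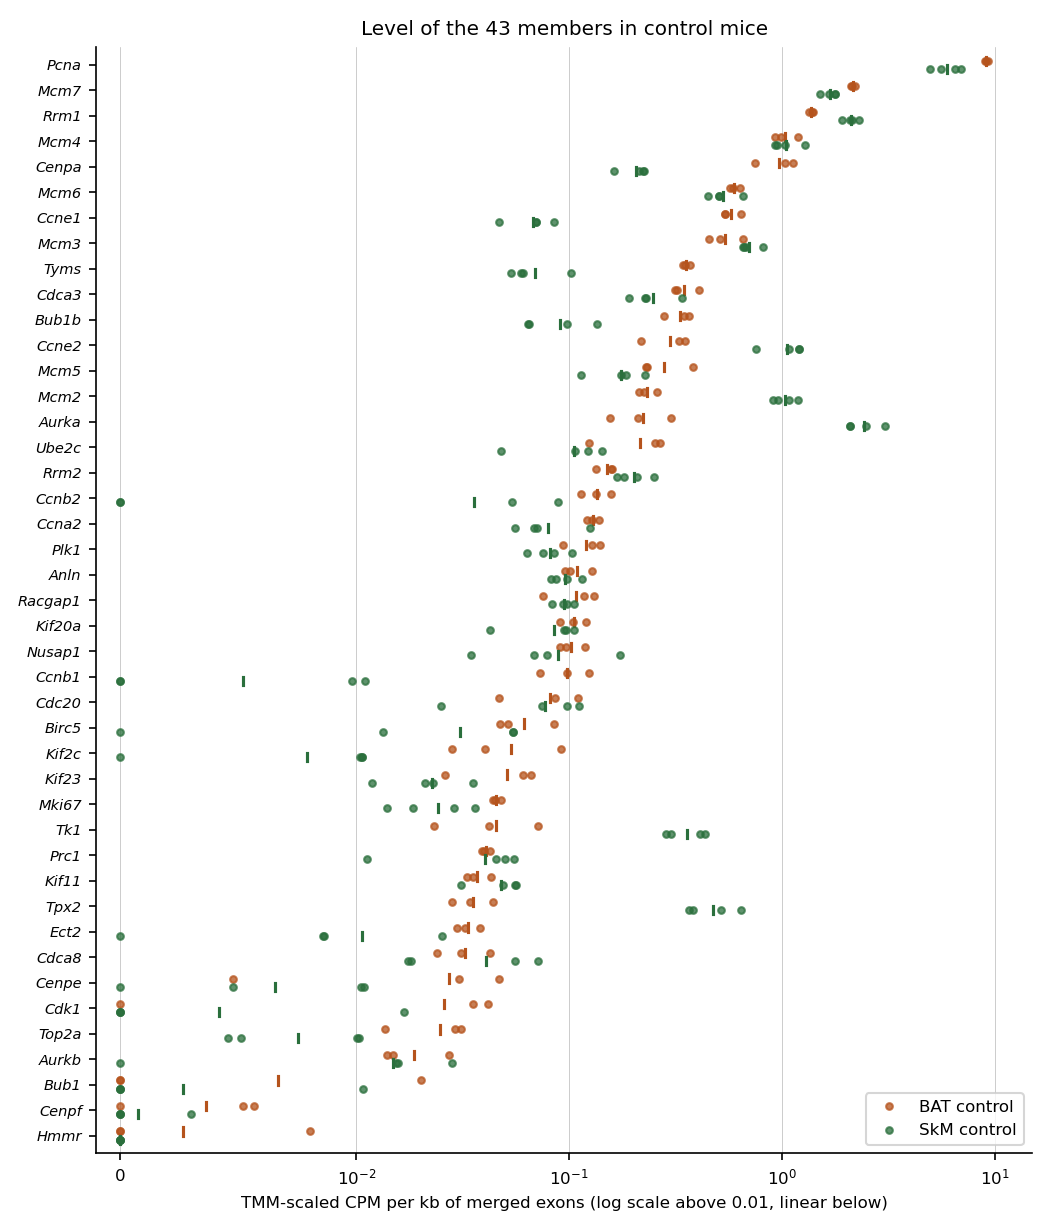
Level of each of the 43 members in control libraries, in TMM-scaled CPM per kb of merged exons on an axis that is logarithmic above 0.01 and linear below. Each point is 1 library (3 of BAT, 4 of SkM) and each short bar a group mean, with members ordered by their BAT mean. Most replication members lie to the right and most mitotic members to the left, and Aurka, Tpx2, Tk1 and Mcm2 lie further right in SkM while Cenpa, Ccne1, Tyms and Bub1b lie further right in BAT.

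Between the tissues of control mice, 11 of the 23 members tested differed in level, where a differentially expressed gene (DEG) has an edgeR adjusted p under 0.05 and a fold change over 1.5. Of all genes tested, 60.0% were DEGs in this comparison, 29.8% higher and 30.2% lower in BAT. In BAT relative to SkM, 4 members were higher: Ccne1 (cyclin E1, log2 fold change 2.79 with a standard error (SE) of 0.29), Tyms (2.07, SE 0.26), Cenpa (1.96, SE 0.19), the centromeric histone variant, and Bub1b (1.57, SE 0.30), a spindle checkpoint protein. The 7 members that were lower in BAT included Tpx2 at −3.96 (SE 0.35), which encodes a protein that activates Aurora A on the spindle, Aurka itself at −3.69 (SE 0.24) and Tk1 at −3.22 (SE 0.35). Mcm2, Ccne2, Rrm1 and Mcm3 were the others, at −2.43, −2.09, −0.89 and −0.64. Counts of Aurka were 114, 166, 139 and 128 in the SkM controls and 9, 19 and 13 in the BAT controls. In the same SkM libraries Mki67, a marker of cycling cells, had 4, 3, 8 and 7 counts, Top2a had 1, 2, 2 and 1, and Ccnb1, cyclin B1, had 1, 0, 0 and 1. The high SkM level of Aurka was therefore not shared by these cell cycle markers. Leaving out BAT control 1 or SkM control 2 took the Mcm3 difference below the fold minimum (log2 values over all leave-outs from −0.80 to −0.53).

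In BAT of sedentary mice, CR changed 3 members, 1 of them lower and 2 higher. Cenpa fell to 0.419 of its control level, Ccne1 rose 1.87-fold and Anln, an actin-binding scaffold of the cytokinetic ring, rose 1.59-fold, while 21 of the 24 members tested were not DEGs. The 3 members were 12.5% of those tested, beside 10.7% of all genes tested (3.87% higher and 6.85% lower). The median log2 fold change of the members was 0.042, against 0.0046 for all genes.

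Cenpa gave the clearest difference. Its counts were 151, 109 and 147 in the controls and 50, 53, 73 and 42 under CR. The lowest control library lay above the highest CR library. In TMM-scaled CPM the level was 5.68 ± 1.16 (SD, n = 3) in controls and 2.37 ± 0.517 (SD, n = 4) under CR, with a log2 fold change of −1.25 (SE 0.20, edgeR adjusted p = 0.0022). The fall was a DEG under all 9 other settings and whichever of the 7 libraries was left out. Its fellow kinetochore members were near the detection limit, Cenpe at 6, 10 and 1 control counts and 3, 5, 1 and 3 CR counts, and Cenpf at 2 counts at most.

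Cyclin E1 opens DNA synthesis together with its kinase. Ccne1 counts were 39, 36 and 35 in the controls and 54, 97, 49 and 59 under CR, with no overlap, and CR 2 stood apart at the top. The log2 fold change was 0.90 (SE 0.29, edgeR adjusted p = 0.047). Only the leave-out of CR 3 kept this call, with the adjusted p ranging from 0.019 to 0.14 over the 7 leave-outs and the log2 fold change falling to 0.58 at the lowest. Anln counts were 21, 29 and 21 in the controls and 37, 36, 39 and 32 under CR (log2 fold change 0.67, SE 0.21, edgeR adjusted p = 0.047), again without overlap. No leave-out kept the Anln call (adjusted p from 0.064 to 0.15), and it was also lost with DESeq2, without the filter on low counts and with a muscle score as covariate.

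Of the 6 helicase subunits, all tested, none was a DEG, with log2 fold changes from −0.47 (Mcm3) to 0.22 (Mcm4). Pcna rose by less than the fold minimum: 497, 544 and 543 control counts against 604, 549, 581 and 658 under CR gave 0.25 on the log2 scale (SE 0.08, edgeR adjusted p = 0.042). The nucleotide supply genes Rrm1, Rrm2 and Tyms gave 0.05, 0.17 and 0.27, none past the test, and Ccne2 gave 0.51 (edgeR adjusted p = 0.17). Replication members summed to 62.8 to 64.1 CPM in the controls and 65.7 to 76.6 under CR.

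Several mitotic members lay lower in the CR libraries at very low counts. Mki67 had 11 counts in each of the 3 control libraries and 2, 3, 9 and 2 under CR, so that the groups did not overlap. Its log2 fold change was −1.37 (SE 0.49, approximate 95% interval −2.33 to −0.42, edgeR adjusted p = 0.068), which did not pass. Top2a, the topoisomerase that untangles replicated chromosomes, had 6, 7 and 3 control counts and 4, 0, 1 and 0 under CR, and was not tested. Bub1b, with 34, 39 and 29 control counts and 23, 20, 20 and 12 CR counts, also did not overlap, but missed the threshold at −0.78 (SE 0.26, edgeR adjusted p = 0.056). Aurka went the other way, from 9, 19 and 13 counts to 18, 22, 28 and 35, at 0.98 (SE 0.32, edgeR adjusted p = 0.052). In CPM the Aurka groups did not overlap, with 0.763 in control 2 and 0.779 in CR 1 as the nearest libraries. Ube2c, the ubiquitin-conjugating partner of the anaphase-promoting complex, had 15, 8 and 17 control counts and 3, 5, 5 and 5 under CR. It shares 22.8% of its exon bases with Tnnc2, a muscle troponin gene on the opposite strand. The counting is not stated to use strand, so reads in the shared bases may come from either gene. In the SkM libraries Ube2c had 2 to 14 counts, and the part of Tnnc2 reads in its counts was not tested.

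Over all 43 members, tested or not, 6 lay higher and 7 lay lower in every CR library than in every control library. Among the members tested the counts were 6 and 4 of 24, beside 16.6% and 17.0% of all genes. The 30 mitotic members summed to 398, 412 and 382 counts in the control libraries and to between 257 and 311 under CR. Scaled, that is 15.7 to 17.4 CPM against 10.9 to 13.2 CPM, with no overlap, and the group means were 16.6 ± 0.862 CPM (SD, n = 3) and 12.3 ± 0.976 CPM (SD, n = 4). Cenpa alone accounted for 5.68 and 2.37 CPM of these means, which is most of their difference. It held 6.04 of the 15.7 CPM of control 3 and 2.53 of the 13.2 CPM of CR 2. Without Cenpa the sums of the control and CR libraries therefore overlapped. Fewer cells of a type and less RNA per cell cannot be told apart in these bulk samples. Markers of cells that can divide moved in the same libraries, and so did those of brown adipocytes. Brown adipocyte markers summed to 13380 to 15050 CPM in the controls and 12340 to 13240 under CR, with 2 of 5 lower as DEGs. Macrophage markers summed to 46.7 to 50.4 CPM in the controls and 21.9 to 38.5 under CR, with 2 of 5 lower as DEGs. B cell markers summed to 1.11 to 1.97 CPM and 0.173 to 0.246 CPM, with the 1 of 4 that could be tested lower and Ms4a1 at 0 in every CR library. T cell markers summed to 0.803 to 1.31 CPM and 0.0954 to 0.638 CPM, and none of the 4 could be tested. Fibroblast and adipocyte progenitor markers went from 157 to 195 CPM to 107 to 145 CPM (1 of 5 lower), and endothelial markers from 319 to 361 CPM to 229 to 290 CPM (0 of 5 DEGs). The part of these cells in the members' values was not tested.

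**Figure D2:**
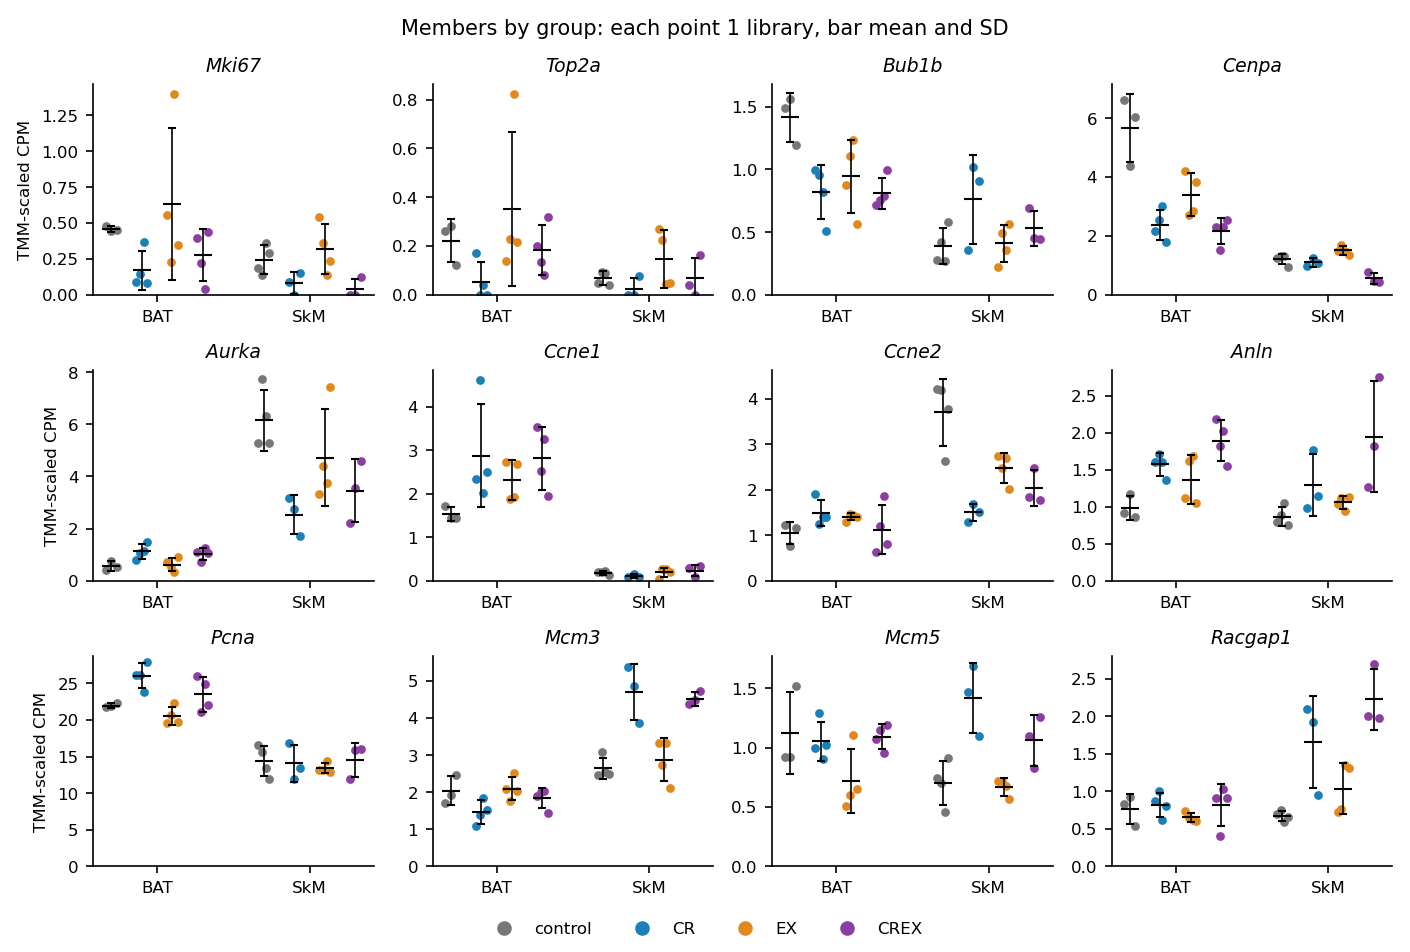
TMM-scaled CPM of 12 members in the 4 groups of BAT (left of each panel) and SkM (right), each point 1 library and each bar the group mean with its SD. Cenpa falls from 5.68 to 2.37 CPM with CR in BAT, Aurka and Ccne2 fall and Mcm3, Mcm5 and Racgap1 rise with CR in SkM, and Mki67 and Top2a stay below 1.5 CPM in every library.

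In trained mice, the same question of what CR does was put by comparing CREX with EX in BAT, and 0 of the 20 members tested were DEGs, beside 4.48% of all genes. At an unadjusted edgeR p under 0.05 there were 2 members, Cenpa and Aurka, and 25.6% of all genes. Cenpa counts were 91, 59, 69 and 88 in EX and 58, 34, 56 and 64 in CREX. They gave a log2 fold change of −0.65 (SE 0.21, edgeR adjusted p = 0.093). Aurka counts were 15, 11, 8 and 21 in EX and 28, 16, 30 and 27 in CREX, with a log2 fold change of 0.76 (SE 0.33, edgeR adjusted p = 0.18). Both therefore had the sign they had in sedentary mice, and neither passed. Mcm5, Anln and Pcna gave 0.59, 0.47 and 0.19, with the smallest of their adjusted p-values at 0.20. DESeq2 also called 0 members in this comparison. The mitotic members summed to 13.1 to 19.7 CPM in EX and 11.1 to 14.5 CPM in CREX, which overlapped.

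1 library weighed on the trained BAT groups. EX 3 held the highest value of its group for 21 of the 30 mitotic members, with 479 summed counts against 334, 285 and 317 in the other EX libraries. Mki67 had 34 counts there and 12, 5 and 8 in the others, Top2a 20 against 3, 5 and 5, and Ccna2 27 against 17, 12 and 8. Fibroblast and macrophage markers were also highest in EX 3 among all BAT libraries, at 546 and 81.9 CPM. So were mesothelial and satellite cell markers, at 2.14 and 1.40 CPM. The part of these cells in the mitotic values was not tested.

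When CR was estimated over both exercise states, with 7 libraries without CR and 8 with it, 5 of the 28 members tested in BAT were DEGs (17.9%, beside 11.8% of all genes, 3.96% higher and 7.83% lower). Cenpa (−0.95, SE 0.15, edgeR adjusted p = 0.00031), Ccna2, which encodes cyclin A2 (−0.73, SE 0.25, adjusted p = 0.034), and Mki67 (−1.29, SE 0.46, adjusted p = 0.042) were lower. Aurka (0.87, SE 0.24, adjusted p = 0.011) and Ccne1 (0.59, SE 0.19, adjusted p = 0.026) were higher. In trained mice alone, CREX compared with EX, Ccne1 gave 0.29 with an edgeR adjusted p of 0.47 or above. Anln at 0.57 and Pcna at 0.22 passed the test (adjusted p = 0.0082 and 0.0076) but not the fold minimum. The calls of Cenpa and Aurka held in all 15 leave-outs, those of Ccne1 in 8, of Ccna2 in 7 and of Mki67 in 5. Their adjusted p reached at most 0.060 for Ccne1, 0.076 for Ccna2 and 0.11 for Mki67, and leaving out EX 3 took all 3 of them out of the DEGs. Ccna2 was also not a DEG with DESeq2 or without the filter on low counts (adjusted p = 0.063 with each). 12.5% of the Ccna2 exon bases are shared with Exosc9 on the opposite strand.

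**Figure D3:**
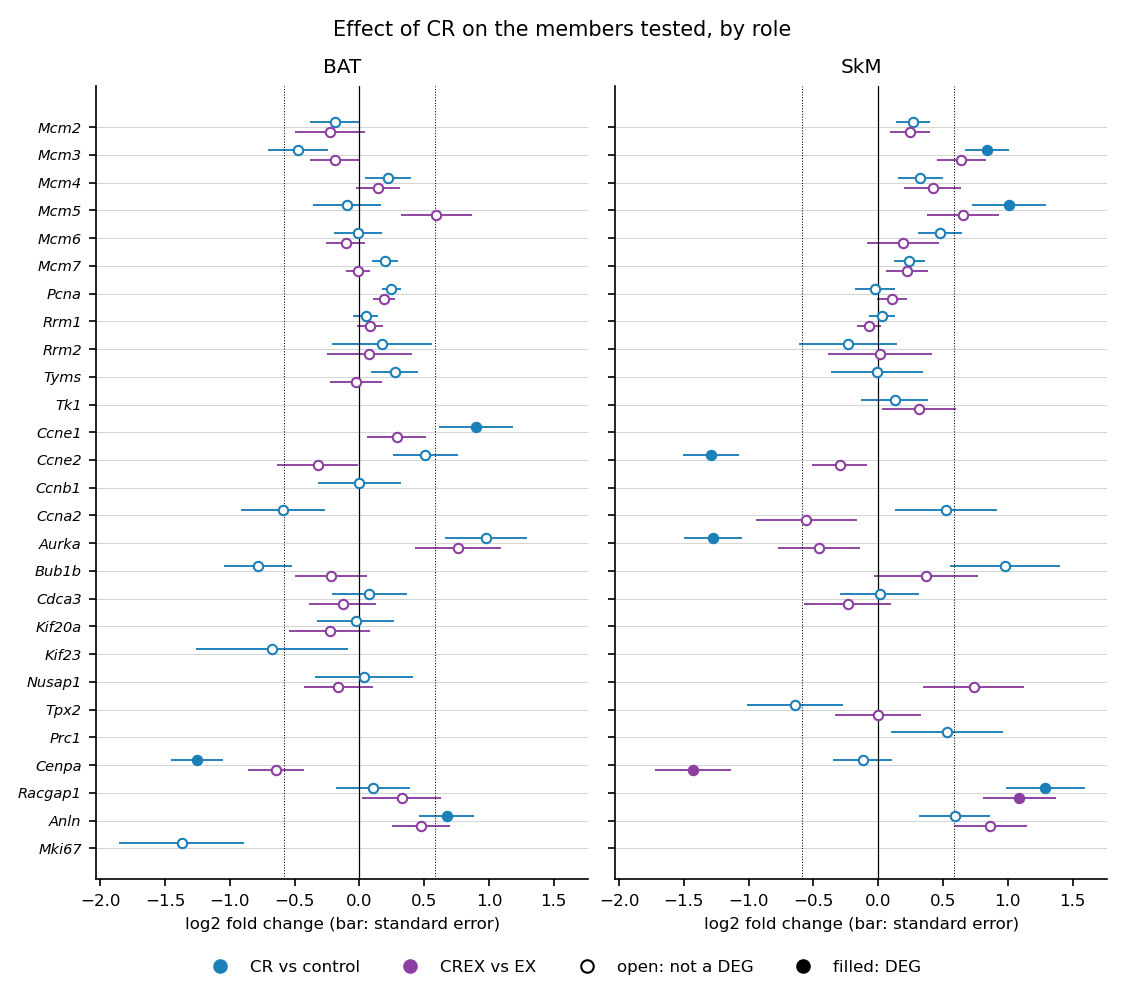
Log2 fold change with its SE of the members tested, CR versus control in blue and CREX versus EX in purple, in BAT (left) and SkM (right). Members are ordered by role from helicase subunits at the top to chromosome structure at the bottom, filled points are DEGs and dotted lines mark a fold change of 1.5. Cenpa lies left of 0 in both BAT comparisons and far left in SkM CREX versus EX only, and all 6 Mcm genes lie right of 0 in SkM.

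In SkM of sedentary mice, 5 of the 21 members tested were DEGs with CR (23.8%, beside 9.6% of all genes, 4.27% higher and 5.32% lower). Mcm3 and Mcm5, subunits of the origin licensing helicase, and Racgap1, a subunit of the centralspindlin complex of the mitotic spindle, were higher. Aurka and Ccne2, which encodes cyclin E2, were lower. The median log2 fold change of the members was 0.24, against 0.0049 for all genes. This median depended on the settings, and it was much smaller without the filter on low counts and with 1 fit on all groups, as given in the closing section.

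All 6 helicase subunits had positive estimates, with 2 DEGs. Mcm3 counts were 53, 66, 56 and 60 in the controls and 121, 124 and 102 under CR. The log2 fold change was 0.84 (SE 0.17, edgeR adjusted p = 0.0090), and the call held in all 7 leave-outs. Mcm5 counts were 16, 15, 10 and 22 against 33, 43 and 29 (1.01, SE 0.28, edgeR adjusted p = 0.040), which also did not overlap. That call held in 2 of the 7 leave-outs, those of CR 3 and control 4, with adjusted p-values up to 0.14. Mcm6, Mcm4, Mcm2 and Mcm7 gave 0.48, 0.32, 0.27 and 0.24, the smallest of their adjusted p-values being 0.093. Mcm2 counts were 136, 161, 183 and 162 in the controls and 212, 222 and 205 under CR. These raw counts did not overlap, but scaling brought the estimate to 0.27 (SE 0.13, edgeR adjusted p = 0.21).

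The clamp and the nucleotide supply genes stayed close to 0, with −0.02 for Pcna, 0.03 for Rrm1, −0.23 for Rrm2, −0.01 for Tyms and 0.13 for Tk1. Their 5 adjusted p-values were all 0.73 or above. Pcna counts were 359, 335, 295 and 289 in the controls and 380, 304 and 354 under CR. Ccne2 counts were 91, 90, 58 and 91 in the controls and 29, 43 and 40 under CR, giving −1.29 (SE 0.21, edgeR adjusted p = 0.0038). 17.4% of the Ccne2 exon bases are shared with Ints8 on the opposite strand, whose reads may therefore add to its counts. Ccne1, its paralogue, had 3 to 5 counts in the controls and 2 to 4 under CR and was not tested.

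Aurka fell to 0.413 of the control level. Its counts were 71, 70 and 45 under CR, all below the control range of 114 to 166, and the log2 fold change was −1.27 (SE 0.22, edgeR adjusted p = 0.0049). Tpx2, whose protein binds Aurora A, had 37, 52, 66 and 43 control counts and 56, 22 and 25 CR counts (−0.64, SE 0.37, edgeR adjusted p = 0.28), with CR 1 inside the control range. Racgap1 counts were 15, 16, 13 and 16 in the controls and 47, 49 and 25 under CR, for a log2 fold change of 1.29 (SE 0.30, edgeR adjusted p = 0.019). Leaving out CR 2 or control 3 ended the Racgap1 call (adjusted p up to 0.074). The calls of Aurka and Ccne2 held in all 7 leave-outs. Bub1b, at 6, 9, 6 and 14 control counts and 8, 26 and 24 CR counts, gave 0.98 (SE 0.42, edgeR adjusted p = 0.15), and Anln gave 0.59 (SE 0.27, adjusted p = 0.18).

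Most mitotic members had too few SkM counts to be tested. Mki67 had 4, 3, 8 and 7 counts in the controls, 2, 0 and 4 under CR, 12, 8, 3 and 5 in EX and 0, 0 and 3 in CREX. Top2a had 1, 2, 2 and 1 in the controls, 0, 0 and 2 under CR, 6, 5, 1 and 1 in EX and 1, 0 and 4 in CREX. Ccnb1, Bub1 and Hmmr had at most 1 count in any SkM library. None of these genes passed the filter on low counts in SkM, so neither a rise nor a fall of them was tested. Over all 43 members, 7 lay higher and 2 lower in every CR library than in every control library. Among the 21 tested the counts were 6 and 2, beside 13.1% and 14.5% of all genes. Summed over the 30 mitotic members, SkM libraries held 304 to 371 counts in the controls and 306 to 342 under CR, or 14.1 to 17.3 CPM and 11.7 to 13.6 CPM. The group means of this sum were 15.7 ± 1.58 CPM (SD, n = 4) and 12.9 ± 1.07 CPM (SD, n = 3), of which Aurka alone accounted for 6.16 and 2.53 CPM.

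Several SkM cell markers differed between the same libraries, those of muscle fibres among them. Muscle fibre markers summed to 121800 to 135000 CPM in the controls and 146800 to 200200 CPM under CR, with 2 of 10 higher as DEGs. Macrophage markers summed to 19.1 to 34.1 CPM and 14.5 to 22.5 CPM, with 0 of 5 DEGs. Endothelial markers summed to 234 to 294 CPM in the controls and 143 to 183 CPM under CR, with 3 of 5 lower. Fibroblast and progenitor markers summed to 257 to 332 CPM and 209 to 274 CPM, with 2 of 5 lower. Satellite cell markers, those of the muscle stem cells, summed to 6.85 to 8.91 CPM and 7.69 to 8.84 CPM, with 0 of 4 DEGs. Hepatocyte markers (Alb, Apoa1 and Ttr) summed to 0.232 to 4.94 CPM in the controls and 33.6 to 180.5 CPM under CR, with 3 of 3 higher. Their part in the members' values was not tested. In the CREX libraries the hepatocyte markers summed to 0.249 to 39.5 CPM and could be tested for 1 of 3, which was not a DEG. Endothelial markers summed to 234 to 291 CPM in EX and 106 to 208 CPM in CREX, with 2 of 5 lower. Fibroblast and progenitor markers summed to 223.5 to 343 CPM and 237.5 to 255 CPM, also with 2 of 5 lower.

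With training, CREX compared with EX in SkM gave 2 DEGs among 20 members tested (10%, beside 8.86% of all genes, 3.7% higher and 5.16% lower). Cenpa counts were 33, 38, 33 and 29 in EX and 19, 11 and 11 in CREX. Without any overlap, this was a log2 fold change of −1.43 (SE 0.29, edgeR adjusted p = 0.017). Racgap1 counts were 16, 17, 30 and 28 in EX and 49, 65 and 49 in CREX (1.09, SE 0.28, edgeR adjusted p = 0.035). The Cenpa call was lost without CREX 2, CREX 3 or EX 2 (adjusted p up to 0.068), and the Racgap1 call held only without CREX 1 (adjusted p from 0.018 to 0.13). Mcm3 rose in count from 74, 61, 74 and 45 to 107, 108 and 117, with an estimate of 0.64 (SE 0.19, edgeR adjusted p = 0.052) that did not pass. The 6 helicase subunits were again all on the positive side, from 0.19 (Mcm6) to 0.65 (Mcm5), with 0 DEGs. Aurka and Ccne2 gave −0.46 and −0.30, both with an adjusted p of 0.35. Over all 43 members, 4 lay higher and 2 lower in every CREX library than in every EX library. Among the 20 tested the counts were 4 and 1, beside 13.1% and 14.6% of all genes. The untested member was Mki67, with 0.135 CPM in EX 3 and 0.121 CPM in CREX 3 as the nearest libraries. Both of these libraries held 3 Mki67 counts, so their order came from scaling alone. Anln counts were 23, 25, 21 and 24 in EX and 31, 44 and 68 in CREX (0.87, SE 0.28, edgeR adjusted p = 0.067).

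Over both exercise states, 7 of the 24 members tested in SkM were DEGs with CR (29.2%, beside 14.1% of all genes, 5.99% higher and 8.13% lower). Racgap1 (1.19, SE 0.21), Mcm5 (0.83, SE 0.19), Mcm3 (0.74, SE 0.12) and Anln (0.73, SE 0.20) were higher, with edgeR adjusted p-values between 0.00042 and 0.011. Aurka (−0.87, SE 0.22), Ccne2 (−0.79, SE 0.15) and Cenpa (−0.78, SE 0.17) were lower, with adjusted p-values between 0.00092 and 0.0069. Apart from Anln, which fell below the fold minimum without CREX 3, each of these calls held in all 14 leave-outs. The mean over both states hid unequal parts. Cenpa gave −0.12 (edgeR adjusted p = 0.77) in sedentary and −1.43 in trained mice. Aurka gave −1.27 and −0.46, and Ccne2 −1.29 and −0.30. Both cytokinesis genes that could be tested thus rose, and the helicase subunits that were not DEGs gave 0.23 to 0.37.

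**Figure D4:**
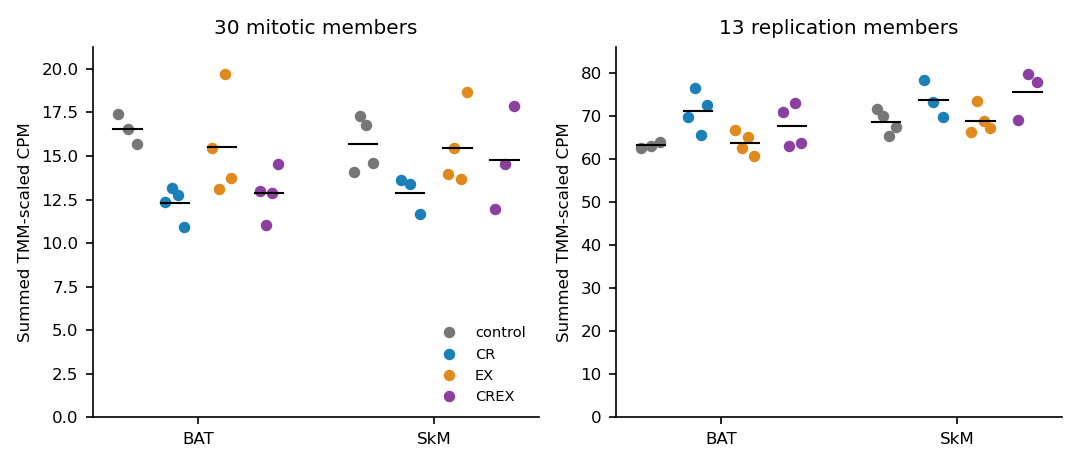
Summed TMM-scaled CPM of the 30 mitotic members (left) and of the 13 replication members (right), each point 1 library and each bar a group mean. In BAT the mitotic sum lies at 15.7 to 17.4 CPM in controls and 10.9 to 13.2 CPM under CR, and 1 EX library stands apart at 19.7 CPM. Most of the difference between the control and CR means of BAT lies in Cenpa, and without it these sums overlap.

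Exercise without CR changed none of the members by the DEG definition. In BAT, EX compared with control gave 0 of 24 members (0.0% of all genes), with Cenpa at −0.74 (SE 0.21, edgeR adjusted p = 0.44) and Ccne1 at 0.60 (SE 0.22, adjusted p = 0.61) as the 2 members at an unadjusted p under 0.05 (7.25% of all genes). In SkM it gave 0 of 18 (0.0775% of all genes). The 3 members at an unadjusted p under 0.05 there (6.85% of all genes) were Ccne2 at −0.57, Ccna2 at 0.82 and Racgap1 at 0.62, with edgeR adjusted p-values of 0.42 or above. Training added to CR, CREX compared with CR, gave 0 of 20 members in BAT (0.00763% of all genes), with 0 at an unadjusted p under 0.05 (7.63% of all genes). In SkM it gave 0 of 22 (0.0% of all genes), with Cenpa alone at an unadjusted p under 0.05 (−0.98, SE 0.36), beside 3.65% of all genes. DESeq2 called 0 members in each of these 4 comparisons.

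Whether the response to CR differed between sedentary and trained mice was tested as an interaction. No member and no other gene was called in either tissue. In BAT the smallest adjusted p among the 28 members was 0.87, and 0 had an unadjusted p under 0.05, beside 5.76% of all genes. In SkM 2 of 24 had (4.92% of all genes), Cenpa at −1.29 (SE 0.35) and Ccne2 at 1.01 (SE 0.29), each with an edgeR adjusted p of 0.94. The CR estimate of Cenpa in SkM was −0.12 in sedentary and −1.43 in trained mice, and that of Ccne2 was −1.29 and −0.30. These differences did not pass the correction, so no difference between the exercise states can be stated.

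The CR response was also compared between tissues, as the BAT change minus the SkM change. In sedentary mice 5 of the 27 members tested differed (18.5%, beside 6.29% of all genes). Aurka gave 2.26 (SE 0.40, edgeR adjusted p = 0.0034) and Ccne2 1.81 (SE 0.33, adjusted p = 0.0039), both of which fell in SkM, while their BAT estimates of 0.98 and 0.51 did not pass the test. Mcm3 gave −1.30 (SE 0.28, adjusted p = 0.012), Cenpa −1.13 (SE 0.31, adjusted p = 0.038) and Bub1b −1.76 (SE 0.50, adjusted p = 0.042). The differences of Aurka, Ccne2 and Mcm3 held in all 14 leave-outs, that of Cenpa in 3 (adjusted p up to 0.11) and that of Bub1b in 2 (up to 0.13). In trained mice 0 of 28 members differed (4.58% of all genes), 3 had an unadjusted p under 0.05 (22.2% of all genes), and the values nearest to the threshold were −0.83 for Mcm3 (edgeR adjusted p = 0.070), 1.23 for Aurka (0.15) and 0.79 for Cenpa (0.20). The sign of the Cenpa value thus differed between sedentary and trained mice, and that difference was not tested.

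To place the members, 58 other cell cycle genes were read in the same fits: the E2F and pocket protein families, the DREAM and MuvB complexes that repress or activate the members, origin licensing and initiation factors, cyclins D and their kinases, CDK inhibitors, checkpoint genes and antiproliferative genes. In BAT with CR, 4 of 53 tested were higher and 4 lower (15.1%, beside 10.7% of all genes). Ccnd1, cyclin D1, which couples growth signals to the cell cycle, fell from 80, 81 and 77 control counts to 23, 15, 29 and 20 (−1.80, SE 0.20, edgeR adjusted p = 0.00032). Wee1, the kinase that holds Cdk1 inactive, rose by 1.11 (SE 0.13, adjusted p = 0.00036), and Lin52, a MuvB subunit, by 0.75 (SE 0.11, adjusted p = 0.0017). The CDK inhibitor gene Cdkn1c (−0.74, SE 0.13) and the phosphatase gene Cdc25b (−0.99, SE 0.19) were lower. CREX compared with EX in BAT gave 1 higher, Wee1 at 0.70 (SE 0.11), and 3 lower of 51 tested (7.84%, beside 4.48% of all genes), Ccnd1 at −1.58 (SE 0.32), Cdkn1c at −0.72 (SE 0.15) and Cdc25b at −0.80 (SE 0.21). The Ccnd1 call there was lost without CREX 4 (adjusted p = 0.055), the Cdkn1c call in 5 of the 8 leave-outs (up to 0.063) and the Cdc25b call in all 8 (up to 0.12).

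In SkM with CR, 3 of 45 other cell cycle genes tested were higher and 6 lower (20%, beside 9.6% of all genes). E2f3, an activating E2F, fell by 1.26 on the log2 scale (SE 0.17, edgeR adjusted p = 0.0015), Ccnd1 by 1.34 (SE 0.23, adjusted p = 0.0043) and Gmnn, whose protein geminin blocks relicensing of origins, by 1.09 (SE 0.19, adjusted p = 0.0045). Wee1 at 1.13 (SE 0.21) and Cdkn1c at 1.03 (SE 0.19) were higher. CREX compared with EX gave 4 higher and 6 lower of 46 (21.7%, beside 8.86% of all genes). Ccnd1 was lower there at −2.09 (SE 0.43), Gmnn at −1.17 (SE 0.23) and E2f6 at −0.59 (SE 0.10), and Cdkn1a, the inhibitor induced by p53, was higher at 1.53 (SE 0.25), as was Cdkn1c at 0.77 (SE 0.17). Of the 7 leave-outs, the call held in 7 for Cdkn1a, 6 for Gmnn, 5 for Ccnd1, 4 for E2f6 and 2 for Cdkn1c, and E2f6 was also not a DEG without the filter on low counts or with 1 fit on all groups. In the 4 comparisons of exercise 0 of these genes were DEGs, with 6, 2, 4 and 0 at an unadjusted p under 0.05 for BAT EX versus control, BAT CREX versus CR, SkM EX versus control and SkM CREX versus CR.

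Ccnd1 thus fell in both tissues with and without training, and Wee1 rose in both tissues of sedentary mice and in trained BAT. In trained SkM Wee1 was not a DEG, at 2.67 to 5.03 CPM in EX and 3.81 to 5.18 CPM in CREX. Cdkn1c, in contrast, fell in BAT and rose in SkM. The difference of its CR response between tissues was −1.76 (SE 0.26, edgeR adjusted p = 0.0012) in sedentary and −1.48 (SE 0.24, adjusted p = 0.0058) in trained mice. Gmnn, at 11.2 ± 0.335 CPM (SD, n = 3) in BAT controls and 15.9 ± 2.33 (SD, n = 4) under CR, and at 3.31 ± 0.344 (SD, n = 4) and 1.53 ± 0.278 (SD, n = 3) in SkM, differed by 1.60 (SE 0.20, adjusted p = 0.00037). E2f2 differed by −2.62 (SE 0.47, adjusted p = 0.0035), being lower with CR in BAT (−1.22, SE 0.28) and higher in SkM (1.41, SE 0.33). The difference held in all 14 leave-outs. The BAT call was lost without control 2 (adjusted p = 0.057) and with 1 fit on all groups (0.082), and the SkM call without CR 2, CR 3, control 2 or control 4 (adjusted p from 0.051 to 0.071).

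**Figure D5:**
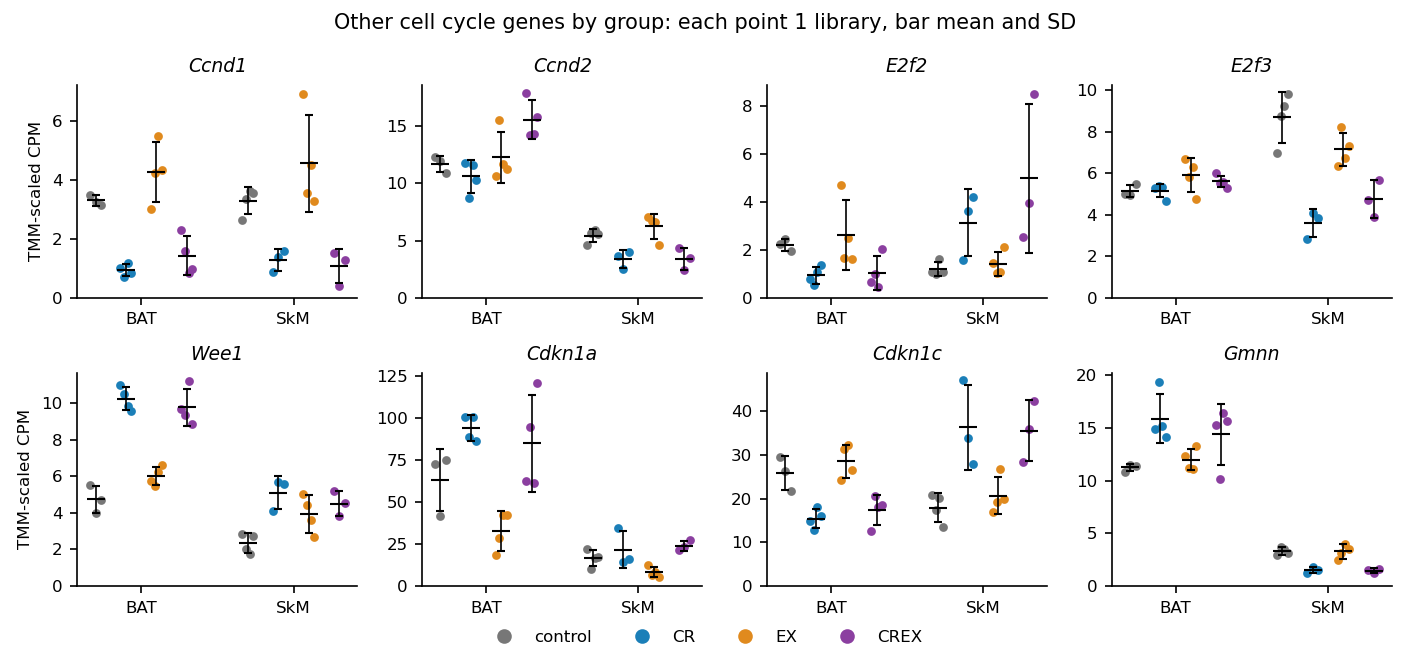
TMM-scaled CPM of 8 other cell cycle genes in the 4 groups of BAT (left of each panel) and SkM (right), each point 1 library and each bar the group mean with its SD. Ccnd1 lies below 2.5 CPM in every library under CR or CREX of both tissues, and Cdkn1c is lower with CR in BAT and higher with CR in SkM.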

How the data were processed

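The deposited table holds expected counts (estimated counts) per gene symbol, which the authors made by aligning reads to mm10 with STAR (2.7.10a in the submitters' processing notes) and estimating counts with RSEM (1.2.28). The gene annotation and the strand setting are not given in the sources used here. Of the values, 6.11% were not whole and were rounded. 27 symbols had been turned into dates, and 2 were duplicated. Each of the 4 pairwise comparisons of a tissue was fitted on its own libraries with edgeR 4.0.16 (robust quasi-likelihood test, TMM scaling, filterByExpr, Benjamini-Hochberg adjustment over all genes tested) in R 4.3.3. The CR effect over both exercise states and the interaction were fitted on all groups of a tissue, and differences between tissues on the libraries of both. A DEG had an adjusted p under 0.05 and a fold change over 1.5. SE was the log2 fold change divided by the square root of F. CPM were TMM-scaled within a tissue, and lengths are merged exons of GENCODE M21 (GRCm38, the assembly of mm10). The script was tested on simulated data. Alternatives were DESeq2 1.42.0, other scaling and filters, 1 fit on all groups, the replicate block, a muscle score as covariate and each library left out. Total counts were 21047253 to 24919384 a library, and detection limits cover counting error only. The interval of a log2 fold change is the estimate with its SE, which includes the spread between libraries. It uses a normal quantile and is therefore too narrow for so few libraries. The members and the other gene lists were chosen with earlier results of these data known. All 43 members were accounted for. Named with values were all DEGs among them, Mki67, Top2a, Pcna and Mcm2, and in each role the member of smallest p and that of most counts; of the other cell cycle genes, up to 5 a comparison were named, by smallest p.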

Additional observations from a re-analysis of the deposited data

Results flagged for a closer look

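In groups of 4 libraries, 1 library lay far from the others for 7 of 132 combinations of member and group, a pattern that chance gives for about 1 in 20. In TMM-scaled CPM these were Ccnb1 in BAT EX 1 (0.971), Kif20a in BAT EX 3 (0.74), Ube2c in BAT EX 4 (0.174), Kif20a in SkM control 1 (0.185), Mcm3 in SkM control 2 (3.07), Tyms in SkM control 4 (0.621) and Mcm4 in SkM EX 4 (2.44). Kif20a shares 29.3% of its exon bases with Cdc23 on the opposite strand.

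The CR response of 5 members differed between BAT and SkM of sedentary mice in a test of the difference itself. As the log2 change in BAT minus that in SkM, the values were 2.26 for Aurka, 1.81 for Ccne2, −1.13 for Cenpa, −1.30 for Mcm3 and −1.76 for Bub1b. Among the other cell cycle genes, Gmnn (1.60 in sedentary and 1.44 in trained mice), Cdkn1c (−1.76 and −1.48) and E2f2 (−2.62 and −3.14) differed in both exercise states. E2f3 (1.28), Lin52 (0.87), Cdkn2b (1.71) and Cdkn2d (0.71) differed in sedentary mice, and Ccnd2 (1.24) and Cdkn2c (−0.89) in trained mice. Whether these 6 genes differed between the exercise states was not tested here.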

How the results depend on the processing

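Among the genes named as DEGs none turned its direction under any alternative run. With the replicate number as a block, the number of members called fell from 3 to 1 in BAT CR versus control, from 2 to 0 in SkM CREX versus EX, and from 5 to 3 for the tissue difference in sedentary mice. Whether the numbers mark matched libraries is not given in the sources used here. In no comparison did every same-numbered pair of libraries correlate above 0.1. Single pairs ranged from −0.47 (BAT CR versus control) to 0.50 (BAT CREX versus EX), which cannot exclude pairing. The block is therefore given as an alternative. Under it, CR over both exercise states in BAT no longer gave Ccna2 (adjusted p = 0.077) or Mki67 (0.079) as DEGs. DESeq2 called 1 member for the tissue difference in trained mice, and 1 fit on all groups called 4 in SkM CREX versus EX. Without the filter on low counts the median log2 fold change of the members was −0.21 in BAT CREX versus EX, 0.20 in BAT EX versus control, 0.0029 in SkM CR versus control, 0.0045 in SkM CREX versus EX and 0.069 in SkM EX versus control, and −0.13 and −0.035 for CR over both exercise states in BAT and SkM, from main values of −0.021, 0.095, 0.24, 0.21, −0.053, 0.010 and 0.13. This setting adds members with few counts. With 1 fit on all groups it was −0.12 in BAT CREX versus EX and 0.070 in SkM CR versus control.

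With each library left out in turn, members called ranged from 1 to 3 in BAT CR versus control, 3 to 6 in SkM CR versus control, 0 to 4 in SkM CREX versus EX, 2 to 7 for CR over both exercise states in BAT, 0 to 1 for the SkM interaction and 3 to 6 for the tissue difference in sedentary mice. The medians ranged from 0.017 to 0.14 in BAT CR versus control, −0.12 to −0.034 in BAT CREX versus EX, 0.029 to 0.18 in BAT EX versus control, −0.073 to 0.064 in BAT CREX versus CR, 0.15 to 0.32 in SkM CR versus control, 0.10 to 0.28 in SkM CREX versus EX, −0.083 to 0.086 in SkM EX versus control, −0.048 to 0.025 in SkM CREX versus CR, −0.042 to 0.066 for CR over both states in BAT and 0.025 to 0.21 in SkM. The causes were not tested. Depth limits the mitotic members most, since 21 of the 43 had a median of 10 counts or fewer in both tissues.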
